A study of Mus musculus with 126 samples.

Results

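The developmental pluripotency associated (Dppa) genes Dppa2, Dppa3, Dppa4 and Dppa5a were followed across mouse embryonic stem cells in which DNA methylation, histone deacetylation or both had been disturbed. The genes were chosen by their names in a table of RNA-seq read counts, and all 4 were found among its 23420 genes. All 4 also passed the filter on low counts, which left 15822 genes for testing. The series holds 126 samples and concerns the parts played by DNA methylation and histone acetylation in where transcription factors sit on the genome. Its 8 RNA-seq libraries are described below, and the other 118 samples were not analysed here. The cells were of the J1 line, either wild type or DNMT.TKO, in which the DNA methyltransferase genes Dnmt1, Dnmt3a and Dnmt3b are knocked out (TKO). The labels do not give the number of TKO clones. All cells grew on gelatin in medium with serum and the cytokine LIF, and were treated for 36 h. Trichostatin A (TSA), an inhibitor of histone deacetylases, was used at a labelled 5 ng/µl, and the control was 0.0033% DMSO. Each of the 4 combinations of genotype and treatment had 2 libraries.

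Dppa2 and Dppa4 encode SAP domain proteins that bind chromatin as a pair in pluripotent cells. They keep promoters of silent developmental genes poised and free of DNA methylation, and they help to switch on Dux, Zscan4 and other genes of the 2-cell embryo. Dppa3, also called Stella or PGC7, encodes a small protein of the oocyte, the early embryo and primordial germ cells. It holds the methylation cofactor Uhrf1 away from chromatin and shields the maternal genome from oxidation by Tet3. Dppa5a, also called Esg1, encodes an RNA-binding protein with a KH domain that is abundant in pluripotent cells and belongs to the same family as the oocyte genes Khdc3 and Ooep.

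In the deposited coordinates (mm10), Dppa4 lies at chr16:48283735-48294292 and Dppa2 at chr16:48310274-48319513, both on the + strand. They are next to each other, with a gap of 16.0 kb and no other gene of the table between them. Dppa4 has 7 exons with 1534 bases in sum, and Dppa2 has 7 exons with 1941 bases. Dppa3 (chr6:122626424-122630271, + strand) has 4 exons with 818 bases and lies near Gdf3 and Nanog. Dppa5a (chr9:78367054-78368199, - strand) has 3 exons with 639 bases, and Ooep lies 8.70 kb from its 5′ end. No exon base of the 4 genes is shared with another gene of the table. RefSeq (GRCm38.p6) lists a pseudogene copy of Dppa3 on chromosome X and the pseudogenes Dppa5b and Dppa5c close to Dppa5a on chromosome 9. How reads that fit several places were counted is not given in the sources used here, so the counts of Dppa3 and Dppa5a may be incomplete or mixed.

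Total counts were 13280631 to 15542527 per library. Levels are given as normalised CPM, that is counts relative to the library total after TMM scaling, whose factors were 0.929 to 0.955 in the 4 DMSO libraries and 1.04 to 1.08 in the 4 TSA libraries. The labels were checked on the targeted genes. TKO against wild type cells, both in DMSO, gave a log2 fold change of -1.78 for Dnmt1, -2.996 for Dnmt3a and -3.72 for Dnmt3b. The summed level of 6 embryonic stem cell markers (Pou5f1, Sox2, Nanog, Esrrb, Zfp42 and Klf4) was 2363 to 2630 normalised CPM in DMSO-treated wild type, 1266 to 1443 in TSA-treated wild type, 3148 to 3502 in DMSO-treated TKO and 1481 to 1760 in TSA-treated TKO. The summed level of 12 markers of other cell types (trophectoderm, primitive endoderm, mesoderm, neural cells and fibroblasts) was 225 to 356, 152 to 175, 107 to 123 and 137 to 149 in the same order. Nes was the largest part of this sum, with group means of 174, 71.8, 59.7 and 66.6. Acta2 averaged 55.0 in DMSO-treated and 14.5 in TSA-treated wild type. The sum thus hides opposite changes: with TSA in wild type, 4 of the 12 were called higher and 4 lower. None of these 18 markers had 3 or fewer counts in any library. In bulk RNA, fewer cells of a type and less RNA per cell cannot be told apart.

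Per kb of exon, which allows genes to be compared, Dppa5a was the most abundant of the 4 genes in each group. Its mean was 485 ± 13.6 normalised CPM per kb (SD, n = 2) in DMSO-treated wild type, 422 ± 48.3 in TSA-treated wild type, 462 ± 42.1 in DMSO-treated TKO and 416 ± 29.4 in TSA-treated TKO. This placed it between rank 48 and rank 57 of the 15822 tested genes. Dppa4 followed in both DMSO groups, with 76.4 ± 3.21 in wild type and 76.2 ± 7.12 normalised CPM per kb in TKO (SD, n = 2). Dppa2 and Dppa3 came last in DMSO and could not be ordered, since their libraries overlapped in both genotypes: Dppa2 was at 32.5 ± 5.58 and 39.8 ± 1.48, and Dppa3 at 30.5 ± 6.22 and 37.1 ± 3.51 in wild type and TKO (SD, n = 2). With TSA the order was Dppa5a, Dppa3, Dppa4 and Dppa2 in both genotypes, and no neighbours in it overlapped. Dppa3 then stood at 86.0 ± 14.1 normalised CPM per kb in wild type and 153 ± 59.1 in TKO, against 64.7 ± 3.78 and 60.0 ± 2.78 for Dppa4 (SD, n = 2). Its rank among the tested genes moved from 3481 in DMSO-treated wild type to 823 in TSA-treated wild type, and from 2853 in DMSO-treated TKO to 315 in TSA-treated TKO.

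**Figure D1:**
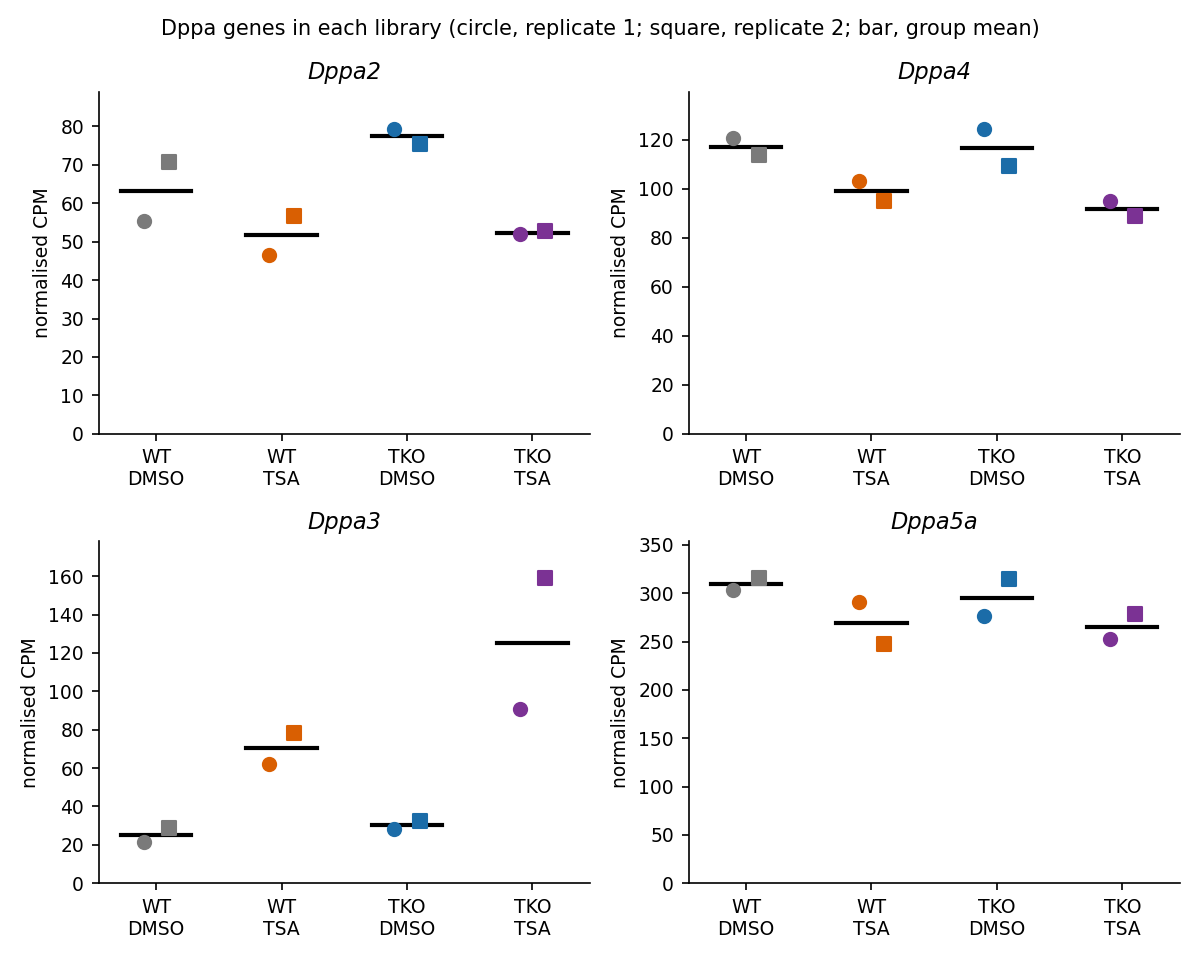
Normalised CPM (y axis, from 0) of Dppa2, Dppa4, Dppa3 and Dppa5a in each library of the 4 groups (x axis), with circles for replicate 1, squares for replicate 2 and a bar at the group mean. The 4 TSA libraries of Dppa3 lie at 62.2 to 159, above its 4 DMSO libraries at 21.3 to 32.4, while Dppa5a stays between 248 and 316 in all 8 libraries.

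Dppa3 was the member whose RNA varied most. It was at 21.3 and 28.5 normalised CPM in replicates 1 and 2 of DMSO-treated wild type and at 62.2 and 78.5 in TSA-treated wild type. TKO cells had 28.3 and 32.4 with DMSO and 90.7 and 159 with TSA. The DMSO libraries of both genotypes were thus low and the TSA libraries high, with no overlap between them, and replicate 2 of TSA-treated TKO stood above every other library. Highest and lowest library differed 7.46-fold.

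With TSA, Dppa3 rose by a log2 fold change of 1.50 ± 0.24 (SE) in wild type, or 2.83-fold (edgeR adjusted p 0.000482). In TKO it rose by 2.04 ± 0.24 (SE), or 4.12-fold (edgeR adjusted p 3.88e-05). In the main fit it was the only one of the 4 members called in wild type, where 52.8% of all tested genes were called, 27.0% higher and 25.9% lower. With the replicate number as a block, Dppa2 and Dppa4 were called lower in wild type. In TKO, 58.7% of the tested genes were called and 30.8% were called higher. The difference between the 2 TSA effects was 0.54 on the log2 scale with a 95% interval from -0.19 to 1.28 (edgeR adjusted p 0.504), so a difference between the genotypes was not established.

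Loss of the methyltransferases without TSA left Dppa3 at overlapping levels. TKO against wild type cells in DMSO gave a log2 fold change of 0.29 with a 95% interval from -0.26 to 0.83 (edgeR adjusted p 0.457). In TSA both TKO libraries were above both wild type libraries, with a log2 fold change of 0.83 ± 0.22 (SE), or 1.78-fold (edgeR adjusted p 0.0255). That call was lost without replicate 1 of TSA-treated wild type, which gave 0.67 (edgeR adjusted p 0.176), and without replicate 2 of TSA-treated TKO, which gave 0.37 (edgeR adjusted p 0.255). In TSA-treated TKO against DMSO-treated wild type, Dppa3 rose 5.02-fold (log2 fold change 2.33 ± 0.24, SE, edgeR adjusted p 1.53e-05).

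Genes that act with Dppa3 on DNA methylation were a list of 7 (Uhrf1, Dnmt1, Tet1, Tet2, Tet3, Ehmt1 and Ehmt2), all tested. With TSA 4 of them fell and none rose in wild type, and 4 fell and none rose in TKO, where 25.9% and 27.9% of all tested genes were called lower. The median log2 fold change of the list was -0.28 and -0.44, beside 0.01 and 0.04 for all tested genes. Tet1, which oxidises methylcytosine, fell by 2.18 on the log2 scale in wild type and by 2.76 in TKO. Its libraries went from 709 and 755 normalised CPM to 185 and 137 in wild type, and from 991 and 886 to 169 and 108 in TKO. Tet2, an enzyme of the same family, fell by 1.60 and 2.19, and Ehmt1, a histone H3 lysine methyltransferase, by 0.44 in each genotype. Uhrf1, the partner that Dppa3 holds back, was at 363 to 516 normalised CPM over the 8 libraries. Its log2 fold change with TSA was -0.15 in wild type and -0.18 in TKO (edgeR adjusted p 0.160 and 0.103). Tet3 was at -0.12 and -0.04 and was not called either. Between TKO and wild type, the knocked-out Dnmt1 was the only gene of the list called in the main fit, in DMSO and in TSA. The count in TSA changed without replicate 1 of TSA-treated TKO. Tet1 in DMSO was at 0.36 (edgeR adjusted p 0.194), and it was called when only the groups compared were fitted (edgeR adjusted p 0.0286). Tet2 was just short of a call in DMSO, with 0.45 (edgeR adjusted p 0.0507), and was called under each of the 8 alternatives that left no library out (adjusted p 0.0149 to 0.0491). With single libraries left out it was called in 4 of 8 fits, and it was at 0.25 (edgeR adjusted p 0.317) without replicate 1 of DMSO-treated wild type and at 0.34 (adjusted p 0.290) without replicate 2 of DMSO-treated TKO. Uhrf1 in DMSO was at 0.24 (edgeR adjusted p 0.0735) in the main fit, 0.26 with total counts (adjusted p 0.0457) and 0.28 with the upper quartile (adjusted p 0.0429). With the replicate number as a block it was at 0.24 and called (adjusted p 0.0463), and it was not called in the other 5 alternatives or in any of the 8 fits with a library left out.

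Germ cell genes that are expressed with Dppa3 in the embryo were a list of 9 (Prdm1, Prdm14, Tfap2c, Nanos3, Ifitm3, Dnd1, Kit, Ddx4 and Dazl), and they did not move in 1 direction. With TSA 4 rose and 4 fell in wild type, where 27.0% of all tested genes were called higher and 25.9% lower. In TKO 3 rose and 4 fell, beside 30.8% and 27.9%, and without replicate 1 of DMSO-treated TKO 1 rose. Tfap2c, a transcription factor of early germ cells, rose by 1.71 ± 0.15 (SE) in wild type and by 2.22 ± 0.15 in TKO on the log2 scale. Its libraries were at 35.5 to 51.9 normalised CPM in the 4 DMSO libraries and at 119 to 211 in the 4 TSA libraries. Prdm14, a germ cell regulator that also supports pluripotency, fell by 1.44 and 2.90, and Ifitm3, a surface protein of germ cell precursors, by 1.14 and 1.07. Dazl, an RNA-binding protein of germ cells that is known to be silenced by promoter methylation, was at 8.42 and 12.3 normalised CPM in DMSO-treated wild type, 25.8 and 58.2 in TSA-treated wild type, 134 and 148 in DMSO-treated TKO and 267 and 259 in TSA-treated TKO. Its groups did not overlap. In TKO against wild type the list held 4 genes that rose and 0 that fell in DMSO. The background is 9.63% called higher among all tested genes, of which 20.4% were called in all. The summed level of the 4 primordial germ cell markers Prdm1, Nanos3, Ddx4 and Dazl was 60.6 to 77.7 normalised CPM in DMSO-treated wild type, 87.0 to 113 in TSA-treated wild type, 207 to 224 in DMSO-treated TKO and 295 to 319 in TSA-treated TKO, with none at 3 or fewer counts in a library. Dazl carried the increase in this sum: without it, a sum taken after the values were seen, the other 3 were at 52.2 to 65.4, 54.3 to 61.2, 73.5 to 76.3 and 36.6 to 51.7 normalised CPM in the same order. Prdm1 fell with TSA by 1.07 in wild type and 0.76 in TKO on the log2 scale, Ddx4 fell by 1.25 in TKO, and Nanos3 rose by 2.08 in wild type. Their part in the rise of Dppa3 was not tested.

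**Figure D2:**
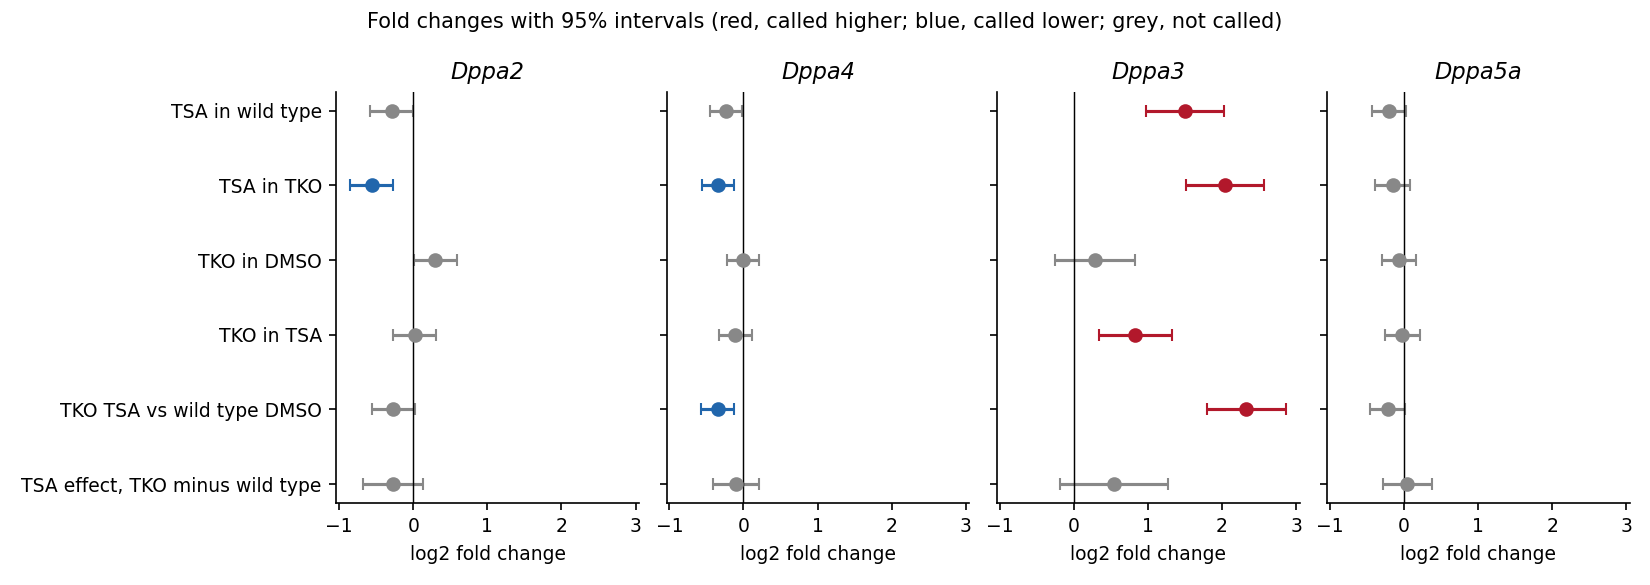
Log2 fold change (x axis) of each Dppa gene in 6 comparisons (y axis), with points at the edgeR estimate and bars for its 95% interval, red where called higher, blue where called lower and grey where not called. For TSA Dppa3 lies at 1.50 (wild type) and 2.04 (TKO), and the other 3 genes lie between -0.56 and 0.30 in all 6 comparisons.

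Dppa2 was lower in TKO cells given TSA than in TKO cells given DMSO. It was at 55.5 and 70.8 normalised CPM in DMSO-treated wild type, 46.6 and 56.6 in TSA-treated wild type, 79.4 and 75.3 in DMSO-treated TKO and 52.0 and 52.7 in TSA-treated TKO. The libraries overlapped between treatments in wild type and did not overlap in TKO, where both DMSO libraries were the highest of the 8. With TSA the log2 fold change was -0.56 ± 0.13 (SE) in TKO, a 1.48-fold fall (edgeR adjusted p 0.00363). In wild type it was -0.29 with a 95% interval from -0.58 to 0.00 (edgeR adjusted p 0.0861), and it was called without replicate 1 of DMSO-treated wild type (-0.45, adjusted p 0.0186) or replicate 2 of TSA-treated wild type (-0.44, adjusted p 0.0496). With the replicate number as a block, Dppa2 in wild type was at -0.29 and called (edgeR adjusted p 0.0463). Over the 8 alternatives that left no library out it ran from -0.30 to -0.08 there, and only the block called it. With single libraries left out it ran from -0.45 to -0.10. The difference between the TSA effects was -0.27 with a 95% interval from -0.68 to 0.14 (edgeR adjusted p 0.558).

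Dppa4, the partner of Dppa2, had smaller fold changes. Its libraries were at 121 and 114 normalised CPM in DMSO-treated wild type, 103 and 95.2 in TSA-treated wild type, 125 and 109 in DMSO-treated TKO and 94.997 and 88.98 in TSA-treated TKO. After TMM scaling, the 4 TSA libraries were all below the 4 DMSO libraries. Relative to library totals alone they overlapped. Replicate 1 of TSA-treated wild type (1693 of 15335733 counts) was then above replicate 2 of DMSO-treated wild type (1403 of 13280631). For Dppa4 the log2 fold change with TSA was -0.35 ± 0.10 (SE) in TKO, a 1.27-fold fall (edgeR adjusted p 0.0116). In wild type it was -0.24 with a 95% interval from -0.46 to -0.02 (edgeR adjusted p 0.0635). With the replicate number as a block it was -0.24 there and called (edgeR adjusted p 0.0263). Over the 8 alternatives that left no library out it ran from -0.25 to -0.04 in wild type, and only the block called it. The TKO call was lost without replicate 1 of DMSO-treated TKO, which gave -0.25 (edgeR adjusted p 0.122), and without replicate 2 of TSA-treated TKO, which gave -0.30 (edgeR adjusted p 0.0793). It was also lost with total counts as the scaling, which gave -0.20 (edgeR adjusted p 0.0963) while moving the median of all tested genes from 0.04 to 0.19. Of the 4 members, 2 were thus called lower in TKO with TSA, where 27.9% of the tested genes were called lower. In TSA-treated TKO against DMSO-treated wild type Dppa4 fell by 0.35 (edgeR adjusted p 0.0102), a call that was lost without replicate 2 of TSA-treated TKO (adjusted p 0.0709) and with total counts as the scaling (adjusted p 0.123). Dppa2 was at -0.27 there (edgeR adjusted p 0.0994), and at -0.44 without replicate 1 of DMSO-treated wild type (adjusted p 0.0171), in a comparison that called 61.9% of the tested genes, 31.7% higher and 30.2% lower.

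Loss of the methyltransferases alone called none of the 4 members in DMSO, where 20.4% of the tested genes were called, 9.63% higher and 10.7% lower. Dppa2 was closest, with both TKO libraries above both wild type libraries and a log2 fold change of 0.295 (95% interval 0.01 to 0.58, edgeR adjusted p 0.142). Without replicate 2 of DMSO-treated wild type this became 0.48 and was called (edgeR adjusted p 0.0299). Dppa4 was at 0.00 with a 95% interval from -0.22 to 0.22 (edgeR adjusted p 0.985), and its sign depended on the scaling. In TSA, where 18.4% of the tested genes were called, 10.0% higher and 8.38% lower, Dppa2 was at 0.02 (95% interval -0.27 to 0.31) and Dppa4 at -0.11 (95% interval -0.33 to 0.11), and neither was called by edgeR (adjusted p 0.929 and 0.479).

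The proteins of Dppa2 and Dppa4 work as a pair, so the ratio of their RNAs per exon length was taken within each library, where it does not depend on the scaling. Dppa2 RNA was at 0.363 and 0.492 of Dppa4 RNA in DMSO-treated wild type, 0.356 and 0.4699 in TSA-treated wild type, 0.503 and 0.545 in DMSO-treated TKO and 0.432 and 0.469 in TSA-treated TKO. Dppa4 RNA was thus the more abundant in all 8 libraries, and replicate 1 had the lower ratio in each group. The mean log2 ratio with TSA minus that with DMSO was -0.13 (exact two-sided permutation test, p = 0.4, adjusted 0.4, n = 4 libraries each). The mean in TKO minus that in wild type was 0.22 (exact two-sided permutation test, p = 0.2, adjusted 0.4, n = 4 each). Within genotypes the mean with TSA less that with DMSO was -0.05 in wild type and -0.22 in TKO. The exact two-sided permutation test run within genotypes gave p = 0.333 for TSA. That test has too few arrangements to fall below 0.05 with any data, so it could not decide. Neither difference passed the test over all 8 libraries, in which 4 against 4 libraries can reach 0.0286 at the lowest.

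Genes of the 2-cell embryo, which Dppa2 and Dppa4 are known to help activate, rose with TSA in both genotypes while neither Dppa2 nor Dppa4 was called higher. A list of 20 such genes (Dux and the Zscan4, Tcstv, Usp17l and Tdpoz families with Zfp352) had 17 tested. All 17 rose with TSA in wild type and all 17 rose in TKO, with median log2 fold changes of 3.37 and 5.00 beside 0.01 and 0.04 for all tested genes. Over all tested genes 27.0% were called higher in wild type and 30.8% in TKO. Of these 17 genes, 5 had at most 3 counts in each DMSO-treated wild type library, so their fitted fold changes depend on the prior count. The filter on low counts could be passed through the TSA libraries alone. For genes this low in DMSO it favoured a rise in advance. The summed level of the 17 genes was 20.9 and 21.6 normalised CPM in DMSO-treated wild type, 192 and 339 in TSA-treated wild type, 13.5 and 18.6 in DMSO-treated TKO and 452 and 628 in TSA-treated TKO. The DMSO libraries of both genotypes were low, and the 2 TSA-treated TKO libraries were above the 2 TSA-treated wild type libraries. Zscan4d, of a family of telomere and genome stability factors of 2-cell-like cells, was at 5.85 and 4.62 normalised CPM in DMSO-treated wild type, 65.5 and 109 in TSA-treated wild type, 3.08 and 3.86 in DMSO-treated TKO and 137 and 166 in TSA-treated TKO. Usp17le, of a family of deubiquitinases, rose by 4.14 ± 0.36 (SE) on the log2 scale with TSA in wild type. Members of these families are near-identical copies of each other, so the count of any single copy is uncertain and the 17 genes are not independent. Whether Dppa2 or Dppa4 took part in the rise with TSA was not tested.

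In DMSO edgeR called none of the 17 genes between TKO and wild type, with a median of -0.17, and 2 were called lower with DESeq2, with the replicate block or without either library of TSA-treated wild type. In TSA 9 were higher in TKO and none lower, with a median of 0.80, and 6 to 11 were called when single libraries were left out. Over all tested genes, 20.4% were called between genotypes in DMSO, and 10.0% were called higher and 8.38% lower in TSA. Zfp352, a zinc finger gene of the 2-cell stage, was higher in TKO by 2.62 ± 0.41 (SE) in TSA (edgeR adjusted p 0.00168). The difference between the TSA effects, which called 1.35% of all tested genes (0.879% higher and 0.468% lower), called none of the 17, whose median was 1.30, and none of the 4 Dppa genes. Of the 2-cell-stage genes, 4 were called higher for this difference with DESeq2, 3 without the filter, 6 with the replicate block, 2 without replicate 2 of TSA-treated wild type and 1 without replicate 1 of TSA-treated TKO. The list was drawn up with earlier results of these data known.

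Of the developmental genes reported to need Dppa2 and Dppa4, Syce1, which encodes a synaptonemal complex protein of meiosis, rose with each change. It was at 18.3 and 20.5 normalised CPM in DMSO-treated wild type, 33.4 and 42.7 in TSA-treated wild type, 48.0 and 50.1 in DMSO-treated TKO and 68.4 and 67.1 in TSA-treated TKO. The 4 groups did not overlap. TSA gave it a log2 fold change of 0.97 in wild type and 0.47 in TKO, and the TKO genotype gave 1.34 in DMSO and 0.83 in TSA (edgeR adjusted p 0.0002, 0.00798, 0.000107 and 0.00146). The call for TSA in TKO was lost without replicate 1 of DMSO-treated TKO, which gave 0.44 (edgeR adjusted p 0.058). Nkx2-5, a heart transcription factor, was not called in any of the 6 comparisons, with a log2 fold change of 1.04 for TSA in wild type (edgeR adjusted p 0.140).

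**Figure D3:**
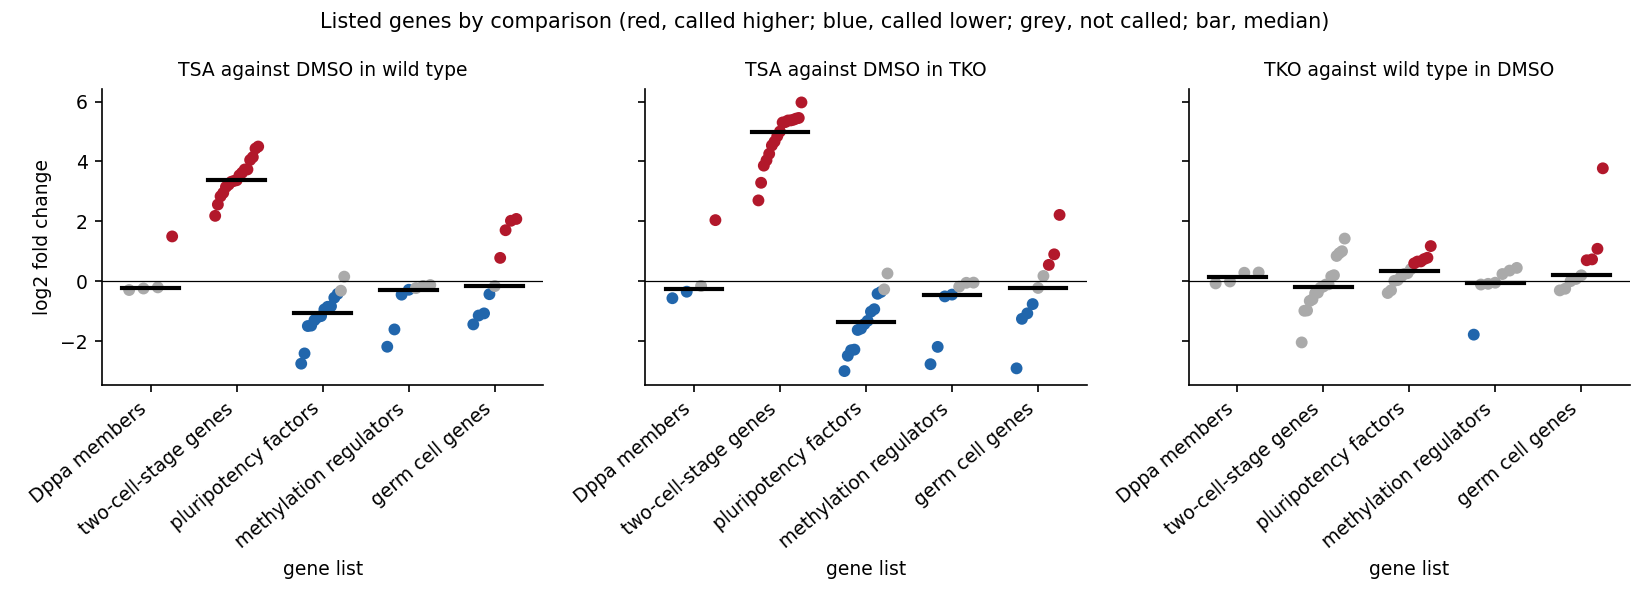
Log2 fold change (y axis) of each gene in the Dppa set and in 4 related lists (x axis) for the TSA effect in each genotype and the TKO effect in DMSO, with red for called higher, blue for called lower, grey for not called and a bar at the list's median. The 2-cell-stage genes lie high with TSA (medians 3.37 and 5.00) and the pluripotency factors low (medians -1.05 and -1.37), while Dppa3 is the highest of the Dppa genes in both TSA panels.

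The pluripotency factors among which the Dppa genes are usually counted fell with TSA. Of 14 tested (Pou5f1, Sox2, Nanog, Klf2, Klf4, Klf5, Esrrb, Zfp42, Tbx3, Tfcp2l1, Utf1, Tdgf1, Gdf3 and Fgf4), 12 fell and none rose in wild type, and 12 fell and none rose in TKO. Over all tested genes 25.9% and 27.9% were called lower. The medians were -1.05 and -1.37. Dppa2, Dppa4 and Dppa5a, with -0.29, -0.24 and -0.20 in wild type and -0.56, -0.35 and -0.15 in TKO, were closer to 0 than these medians. Pou5f1, which encodes the core factor Oct4, went from 936 and 891 normalised CPM in DMSO-treated wild type to 457 and 361 in TSA-treated wild type, and from 933 and 949 to 397 and 303 in TKO. Fgf4, a growth factor under Oct4 and Sox2 control, fell by 2.75 in wild type and 2.30 in TKO on the log2 scale. In TKO against wild type 6 of the 14 rose and none fell in DMSO, among them Nanog by 0.74, where 9.63% of all tested genes were called higher, and the list's median was 0.34. Without replicate 1 of DMSO-treated wild type, or without replicate 2 of DMSO-treated TKO, 2 of the 14 were called higher. Among the 12 markers of other cell types, 4 rose and 4 fell with TSA in wild type, and 6 rose and 1 fell in TKO, beside 27.0% higher and 25.9% lower and 30.8% higher and 27.9% lower over all tested genes. The part of cell type changes in the values of the Dppa genes was not tested.

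Dppa5a was the steadiest of the 4 members. It was at 304 and 316 normalised CPM in DMSO-treated wild type, 291 and 248 in TSA-treated wild type, 276 and 314 in DMSO-treated TKO and 252 and 279 in TSA-treated TKO. Its highest library exceeded its lowest 1.28-fold, against 1.40-fold for Dppa4 and 1.70-fold for Dppa2. After TMM scaling, both TSA libraries were below both DMSO libraries in wild type, and the libraries overlapped in TKO. The log2 fold change with TSA was -0.20 (95% interval -0.43 to 0.03, edgeR adjusted p 0.132) in wild type under TMM, and 0.00 with total counts as the scaling. In TKO it was -0.15 (95% interval -0.39 to 0.08, edgeR adjusted p 0.235). Between TKO and wild type it was -0.07 in DMSO (95% interval -0.30 to 0.16) and -0.02 in TSA (95% interval -0.25 to 0.21), and edgeR called neither (adjusted p 0.703 and 0.913). Dppa5a was not called in any of the 6 comparisons.

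Khdc3 and Ooep, KH domain relatives of Dppa5a that are held in the egg within the subcortical maternal complex, fell with TSA in both genotypes. The list of relatives had 5 genes, of which Khdc1a, Khdc1b and Khdc1c did not pass the filter and were not tested. Over all tested genes 25.9% were called lower with TSA in wild type and 27.9% in TKO. The RefSeq promoters of Khdc3 and Ooep (GRCm38.p6, 250 bases before to 50 after the gene start) are shown because Khdc3 differed between genotypes and Ooep, the neighbour of Dppa5a, did not pass that test. Capitals mark the dinucleotide CG, the site of DNA methylation in mammals, searched on the printed strand, where it reads alike on both strands. The promoters of the 4 Dppa genes were not in the table of promoter sequences used.
Khdc3 promoter, chr9:73102148-73102447, + strand: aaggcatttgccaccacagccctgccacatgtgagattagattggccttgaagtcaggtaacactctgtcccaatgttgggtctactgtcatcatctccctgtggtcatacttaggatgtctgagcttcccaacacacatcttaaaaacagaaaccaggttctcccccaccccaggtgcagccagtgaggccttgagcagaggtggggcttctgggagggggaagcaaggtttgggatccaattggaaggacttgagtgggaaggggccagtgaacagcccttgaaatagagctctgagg
Ooep promoter, chr9:78378539-78378838, - strand: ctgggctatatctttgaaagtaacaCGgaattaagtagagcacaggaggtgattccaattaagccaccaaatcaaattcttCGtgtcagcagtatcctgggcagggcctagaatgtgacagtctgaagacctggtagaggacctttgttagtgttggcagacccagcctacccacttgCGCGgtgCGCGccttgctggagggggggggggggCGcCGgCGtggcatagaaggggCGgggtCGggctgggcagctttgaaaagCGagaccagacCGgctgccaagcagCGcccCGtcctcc
The Khdc3 window held 0 CG and the Ooep window 15. Among 32851 RefSeq promoters of the same length, 94.6% held at least 1 CG and 34.6% held 15 or more. DNA methylation itself was not measured in these libraries, and a link between CG content and the levels of Khdc3 and Ooep was not tested.

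Khdc3 was at 14.6 and 25.2 normalised CPM in DMSO-treated wild type, 8.61 and 8.84 in TSA-treated wild type, 84.2 and 124 in DMSO-treated TKO and 44.9 and 49.98 in TSA-treated TKO. The 4 TKO libraries were all above the 4 wild type libraries, and within each genotype both TSA libraries were below both DMSO libraries. Its log2 fold change was 2.39 ± 0.23 (SE) for TKO in DMSO and 2.44 ± 0.25 for TKO in TSA (edgeR adjusted p 8.45e-05 and 0.000149), where 9.63% and 10.0% of all tested genes were called higher. With TSA it fell by 1.18 in wild type and by 1.13 in TKO (edgeR adjusted p 0.0029 and 0.00101). Ooep was at 42.3 and 48.6 normalised CPM in DMSO-treated wild type, 28.2 and 19.7 in TSA-treated wild type, 40.2 and 50.6 in DMSO-treated TKO and 22.6 and 17.6 in TSA-treated TKO. It was low in all 4 TSA libraries and high in all 4 DMSO libraries, with no overlap. It fell by 0.92 with TSA in wild type and by 1.18 in TKO (edgeR adjusted p 0.00203 and 0.000343). Per kb of exon, Dppa5a was at 416 to 485 as group means, Ooep at 16.6 to 37.6 and Khdc3 at 5.17 to 61.7 normalised CPM.

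**Figure D4:**
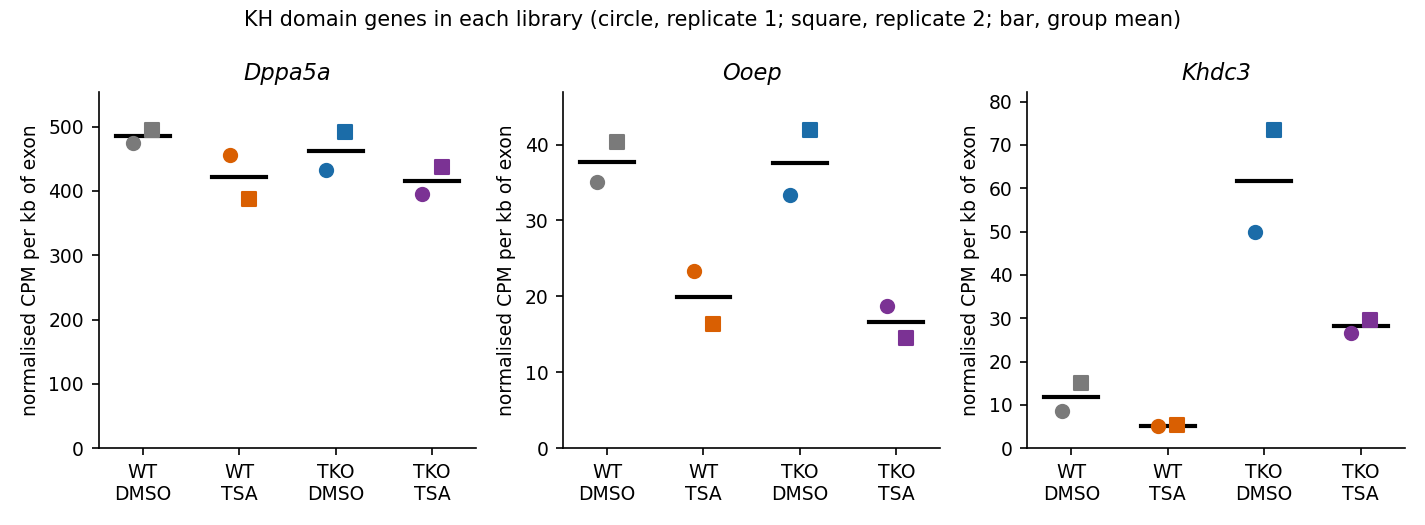
Normalised CPM per kb of exon (y axis, from 0, with its own range for each gene) of Dppa5a, Ooep and Khdc3 in each library of the 4 groups (x axis), with circles for replicate 1, squares for replicate 2 and a bar at the group mean. Dppa5a has group means of 416 to 485, Ooep is lower in all TSA libraries, and Khdc3 is higher in all TKO libraries.

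Genes next to the Dppa genes did not share 1 response. Beside Dppa3 on chromosome 6, Gdf3, a growth factor of the TGF-beta family whose end is 16.4 kb away, fell by 2.41 with TSA in wild type and by 2.99 in TKO on the log2 scale. Nanog, a core pluripotency factor that starts 77.3 kb beyond Dppa3, fell by 0.42 with TSA in wild type and rose by 0.74 in TKO against wild type in DMSO and by 0.89 in TSA. Foxj2, a forkhead factor, rose by 0.67 and 0.81 with TSA in wild type and TKO, and Slc2a3, a glucose transporter, by 0.36 and 0.37. Apobec1, an RNA-editing enzyme, was not called in any of the 6 comparisons.

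Beside Dppa2 on chromosome 16, Morc1, a gene of germ cell transposon silencing, was at -0.66 for TSA in TKO and 0.89 for TKO in DMSO on the log2 scale (edgeR adjusted p 0.00578 and 0.00405). On the Dppa4 side, Pvrl3 lies 1787 kb away and fell by 0.51 with TSA in wild type (edgeR adjusted p 0.00479). Beyond Ooep on chromosome 9, Ddx43, an RNA helicase of testis and tumours, rose by 1.11 and 0.94 with TSA in wild type and TKO. Mb21d1, which encodes the DNA sensor cGAS, rose by 1.66 in TKO against wild type in DMSO and fell by 1.46 with TSA in TKO.

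**Figure D5:**
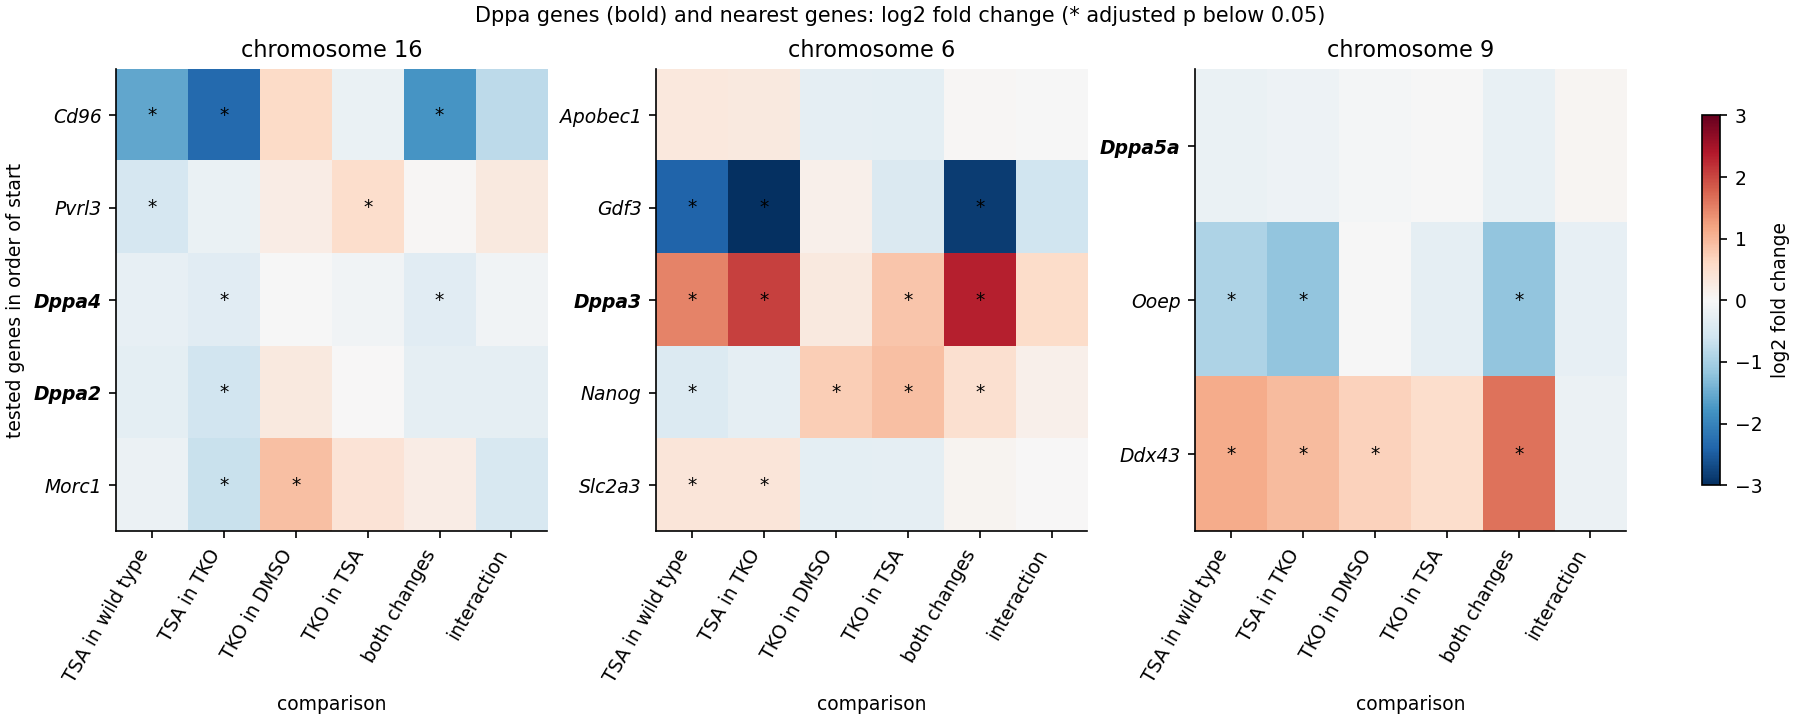
Log2 fold changes (colour scale, -3 to 3) of the Dppa genes, in bold, and the tested genes among the 2 nearest on each side, in order of start (y axis) on chromosomes 16, 6 and 9 for 6 comparisons (x axis), with a star where the adjusted p was below 0.05. Dppa3 (2.04 for TSA in TKO) lies between Gdf3 (-2.99) and Nanog (-0.27), and Dppa5a carries no star.

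The members were also compared by their pattern over the 8 libraries, as the root mean square (RMS) difference of log2 levels after each gene was centred on its own mean, where 0 is the same pattern. Dppa3 varied most around its own mean, with an RMS of 0.95, against 0.26 for Dppa2, 0.16 for Dppa4 and 0.13 for Dppa5a. Dppa4 and Dppa5a were the closest members, with an RMS difference of 0.14, followed by Dppa2 and Dppa4 with 0.21, and Dppa3 differed from the other 3 by 1.04 to 1.13. Among the 14420 tested genes that averaged 1 CPM or more, the patterns most like Dppa3 were those of 3830417A13Rik (RMS difference 0.096), Acy3 (0.13), Slc22a21 (0.16), Adra2b (0.17) and Fxyd5 (0.17). The nearest to Dppa2 was Tbc1d15 (0.042), before Chm, Zfp961, Ppil4 and Qk. The nearest to Dppa4 was Dph3 (0.028), before Lrrc47, Pop4, Sdhaf1 and Psmc2. The nearest to Dppa5a was Tomm7 (0.055), before Gnai2, Ndufab1, Cdk5rap1 and Vps18. Many genes were nearer than the other members: Dppa5a held rank 1316 in likeness to Dppa4, and Dppa4 held rank 900 in likeness to Dppa5a. Dppa4 held rank 1609 in likeness to Dppa2, and Dppa2 held rank 3460 in likeness to Dppa4. These values describe 8 libraries from 4 groups and carry no test.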

How the data were processed

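RNA was measured in 8 libraries, from total RNA depleted of ribosomal RNA and made into strand-directional paired-end libraries, per the labels' protocols. The authors deposited raw read counts per gene with exon coordinates and summed exon length. TopHat2 2.0.13, featureCounts 1.4.5-p1, edgeR 3.22.3 and the build mm10 are named, per the submitters' processing notes. Whether counting used the strand is not given in the sources used here. Groups and replicate numbers came from the labels. The series calls the replicates biological but does not say that they were separate cultures, so p-values measure the spread between these libraries, which may be technical. Replicates differed beyond sampling noise (chi-square per degree of freedom 5.28 to 12.2), and each was counted once.

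Counts were tested in R 4.3.3 with edgeR 4.0.16: filterByExpr, TMM factors and 1 quasi-likelihood fit of 4 group means to all 8 libraries, leaving 4 residual degrees of freedom, with a common biological coefficient of variation of 10.3%. The interaction is the TSA effect of TKO cells less the one of wild type cells. Tests were two-sided, Benjamini-Hochberg adjusted over 15822 genes and called below 0.05. Standard errors and 95% intervals were derived from the F statistic and are approximate. An exact permutation test of 1 gene in 2 against 2 libraries cannot go below p = 0.333. At these depths 3 counts are 0.183 to 0.243 normalised CPM, which covers counting error only. The script was tested on simulated data. The same fit served all comparisons, which share groups. Alternatives were other scalings, no filter, DESeq2 1.42.0, limma 3.58.1 (voom), only the groups compared, a replicate block and each library left out.

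The members and gene lists were chosen with earlier results of these data known. Named genes were the 4 members, the 3 nearest genes on each side of each, the 5 genes of most similar pattern per member (mean of at least 1 CPM, prior count 2 for log2), at most 5 called genes per list and comparison, and the targeted genes. Other list members named with values, among them Uhrf1, Tet3, Nkx2-5, Pou5f1 and Dppa1, were named after their values were seen. An item is not reported here.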

Additional observations from a re-analysis of the deposited data

Results flagged for a closer look

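Interaction calls were looked up only for the Dppa genes and their neighbours, the listed genes, those of similar pattern and the targeted genes. For 7 of these, all outside the Dppa set, the TSA effect in TKO differed from that in wild type by the edgeR interaction test. The test called 213 of 15822 tested genes. None of the 4 Dppa genes was called by it. Each value is the log2 effect of TSA on TKO cells less the one on wild type cells. Dnmt3b, a targeted gene, had 1.33, with -0.72 in wild type and 0.61 in TKO (edgeR adjusted p 0.00521). Prdm14, a germ cell regulator, had -1.47, with -1.44 and -2.90 (edgeR adjusted p 0.0445). Nanos3, a germ cell RNA-binding protein, had -1.90, with 2.08 and 0.18 (edgeR adjusted p 0.0394). Tdgf1, the Nodal co-receptor, had -1.63, with -0.85 and -2.48 (edgeR adjusted p 0.0275). Eomes, a trophectoderm and mesendoderm factor, had 2.79, with -0.50 and 2.28 (edgeR adjusted p 0.00533). Nes, a neural filament gene, had 1.44, with -1.28 and 0.16 (edgeR adjusted p 0.0369). Col1a1, a fibroblast collagen, had 3.05, with 0.35 and 3.40 (edgeR adjusted p 0.0287). It averaged 0.67 normalised CPM in DMSO-treated TKO and 7.13 ± 3.68 in TSA-treated TKO (SD, n = 2). The number of genes called by this test ranged from 9, without replicate 2 of TKO DMSO, to 392, without replicate 2 of wild type DMSO. With single libraries left out, Dnmt3b and Eomes were each called in 7 of 8 fits, Tdgf1 in 4, Nanos3, Nes and Col1a1 in 3 each and Prdm14 in 1, and each kept its direction. The highest edgeR adjusted p over these fits was 0.197 for Prdm14. Of the 7 alternatives that left no library out, limma-voom did not call Prdm14, Nes or Col1a1, and all 7 called the other 4 genes.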

How the results depend on the processing

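Dppa3 kept its calls with TSA in every fit run, at 1.30 to 1.72 in wild type and 1.58 to 2.39 in TKO on the log2 scale. Total counts as the scaling moved the median of all tested genes to 0.22 (TSA in wild type), 0.19 (TSA in TKO) and 0.17 (both changes), and the upper quartile moved it to 0.16, 0.11 and 0.11. The higher and lower calls, 4266 and 4092, 4872 and 4412, and 5015 and 4778 under TMM, became 5812 and 2433, 5908 and 3267, and 6064 and 3542 under total counts, and 5365 and 2794 for TSA in wild type under the upper quartile. For the interaction, 139 higher and 74 lower became 96 and 85 under the upper quartile. Relative to 0, the sign turned for Dppa4 in TKO against wild type in DMSO with relative log expression (0.00042), DESeq2 (0.00042), the upper quartile (0.027), total counts (0.017) and no filter (0.014). It turned for Dppa2 in TKO against wild type in TSA (-0.021 with the upper quartile, -0.013 with total counts), for the Dppa5a interaction (-0.025 and -0.0077) and for Dppa5a with TSA in wild type (0.0027 with total counts). With total counts Dppa4 was no longer called with TSA in TKO (-0.20) or for both changes (-0.18). Genes called for the interaction, 213 in the main analysis, were 401 with DESeq2, 107 with limma-voom, 488 without the filter and 633 with the replicate block. The cause was not tested. Titles share replicate numbers 1 and 2 but do not say what a number shares. Deviations of same-numbered libraries correlated at 0.0673 to 0.325 across genes, positive for every pair of groups. The main fit left the numbers out, and the replicate block was an alternative. With the replicate block, Dppa2 (-0.29, edgeR adjusted p 0.0463) and Dppa4 (-0.24, adjusted p 0.0263) were called with TSA in wild type, and no other member's call changed. The ratio of Dppa2 to Dppa4 was lower with TSA in all 4 same-numbered pairs (log2 difference -0.22 to -0.03). With single libraries left out, Dppa2 ran from -0.45 to -0.10 (TSA in wild type), 0.11 to 0.48 (TKO in DMSO), -0.11 to 0.17 (TKO in TSA) and -0.438 to -0.083 (both changes). Dppa3 ran from 0.37 to 1.18 (TKO in TSA). Dppa4 ran from -0.44 to -0.25 (TSA in TKO), -0.103 to 0.088 (TKO in DMSO) and -0.398 to -0.303 (both changes). Dppa5a ran from -0.165 to 0.021 (TKO in DMSO), -0.13 to 0.10 (TKO in TSA) and -0.065 to 0.170 (interaction). Called genes ran from 1435 to 3328 (TKO in DMSO), 930 to 3399 (TKO in TSA) and 9 to 392 (interaction). List counts were recomputed under alternatives chosen after seeing the data. Of these, 635 of 658 counts stayed within 1.5 times, and 636 of 672 with a library left out. Many of them were 0 in the main fit and stayed 0, which was taken as unchanged.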

Other observations

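Dppa1, which shares the family name but was not among the members, had 0 to 6 counts per library. It was not tested. Its 6 counts were in replicate 2 of TKO TSA, the library in which Dppa3 was highest.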
